A study of Mus musculus with 8 samples.

Results

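The 7 genes described here make the hormones that beta cells store together and the enzymes that mature them. They are both mouse insulin genes, Ins1 and Ins2, the amylin gene Iapp, and the processing enzyme genes Pcsk1, Pcsk2, Cpe and Pam. They were chosen by name from the 23366 genes of the deposited table, and all 7 passed the filter on low counts that left 11721 genes for testing. The samples were 4 libraries of bottom and 4 libraries of top beta cells, purified by sorting from the pancreas of NOD mice at 8 to 10 weeks of age. NOD is an inbred strain that develops autoimmune diabetes, and both populations share it. The labels give no treatment or added allele, and they do not say which property divides bottom from top. Each library was made from about 1000 cells, and each batch holds 2 libraries of each population.

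Beta cells make proinsulin and proamylin as single chains and cut them inside the secretory granule. Pcsk1 and Pcsk2 encode the prohormone convertases that cut after pairs of basic residues. Cpe encodes the carboxypeptidase that trims those residues from the new ends. Pam encodes the enzyme that amidates the end of amylin, and also that of pancreatic polypeptide and peptide YY, while insulin is not amidated. The mouse has a pair of insulin genes, of which Ins1 arose as a copy of an Ins2 transcript. The convertases, Cpe and Pam also work in the other islet endocrine cells, where Pcsk2 is the convertase that makes glucagon in alpha cells.

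In bottom libraries both insulin genes were far lower than in top libraries, while the levels of Pcsk2, Cpe and Pam overlapped between the populations. Summed insulin was 7.75-fold lower in bottom, Iapp 2.12-fold and Pcsk1 3.65-fold, and only the insulin genes passed the test. Pcsk2 was 1.11-fold and Cpe 1.36-fold lower in bottom, and Pam was 1.35-fold higher, none of them past the threshold. Of the 7 genes 2 were therefore called, both lower in bottom, at an adjusted p under 0.05 in edgeR, as were 0.162% of all tested genes in that direction. Because these are bulk libraries, fewer cells of a type and less of its RNA per cell cannot be told apart in any of these values.

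Libraries held 6657639 to 11262368 estimated reads. Levels are given in CPM, the counts scaled to a common library size with TMM factors, with no correction for gene length. The beta cell label was set against 10 marker genes, 3 of them members. Their summed level was 38729 to 81375 CPM in bottom and 344012 to 505634 CPM in top. Most of it was Ins1, Ins2 and Iapp, so the sum restates their difference. Of the others, G6pc2 had 390 to 625 CPM in bottom and 2051 to 3123 CPM in top. Slc30a8 had 170 to 542 CPM in bottom and 781 to 1077 CPM in top, and Slc2a2 11.7 to 116 and 302 to 400 CPM. Ucn3, given below, was also lower in bottom. Pdx1 and Nkx6-1 overlapped, with at most 7.62 and 18.8 CPM in any library. The transcription factor gene Mafa had no read in any library, and whether its transcript was absent or not counted was not tested. The 5 delta cell markers summed to 33437 to 57805 CPM in bottom and 2655 to 5305 CPM in top, and the 3 PP and epsilon cell markers to 11342 to 91991 CPM in bottom and 1196 to 2356 CPM in top. The 8 alpha cell markers summed to 29158 to 142477 CPM in bottom and 65548 to 138424 CPM in top. Most of the delta sum was Sst, most of the PP and epsilon sum Ppy and Pyy, and most of the alpha sum Gcg. These sums thus restate the levels of those hormones. The 6 intestinal markers reached 21072 CPM in bottom 1 and 5041 CPM in bottom 2, against 13.4 to 1289 CPM in the other libraries. The acinar, duct, endothelial, fibroblast and leukocyte lists each summed to at most 1619 CPM in bottom and 362 CPM in top. The part that these other cell types have in the results was not tested.

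**Figure D1:**
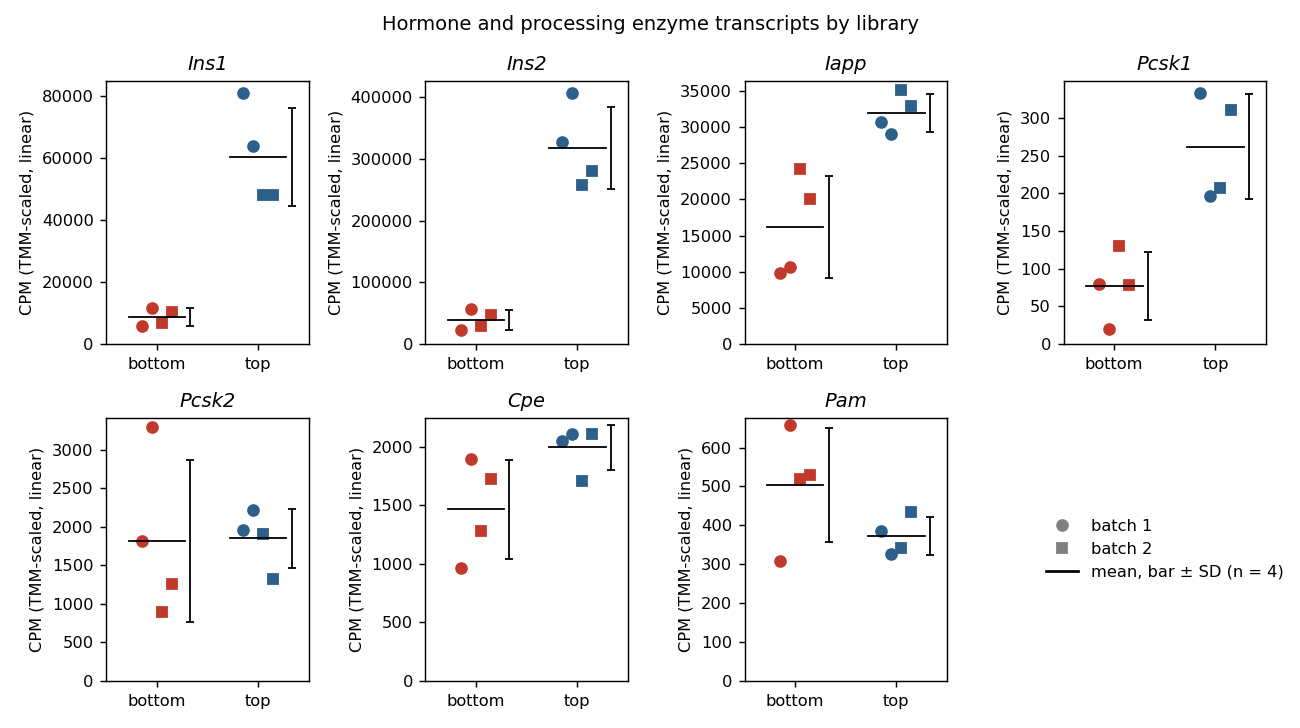
Level of each gene in CPM (linear axes from 0) in the 4 bottom and 4 top libraries, in red for bottom and blue for top, with circles for batch 1 and squares for batch 2, the mean as a line and the SD as a bar. Ins1, Ins2, Iapp and Pcsk1 are lower in every bottom library than in every top library, while Pcsk2, Cpe and Pam overlap.

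Ins1 and Ins2 had the largest differences of the 7 genes. Ins2 had 22278, 57769, 30147 and 47622 CPM across bottom 1 to bottom 4, against 328169, 407136, 257174 and 280143 CPM in top 1 to top 4. The highest bottom library thus stayed far below the lowest top library. Ins2 was 7.97-fold lower in bottom (edgeR log2 fold change -2.99 with SE 0.30 and adjusted p = 0.00498, n = 4). Ins1 had 5828, 11764, 6784 and 10498 CPM across bottom 1 to bottom 4, against 81054, 63999, 48024 and 48003 CPM in top 1 to top 4. Again the populations did not overlap, and bottom 1 was the lowest library for both genes. Ins1 was 6.77-fold lower in bottom (edgeR log2 fold change -2.76 with SE 0.27 and adjusted p = 0.00498, n = 4). Both stayed past the threshold when any 1 library was left out, with edgeR adjusted p up to 0.0333. Within batches the log2 differences of the means were -3.20 and -2.79 for Ins2 and -3.04 and -2.47 for Ins1 in batch 1 and batch 2.

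Summed as 1 gene, insulin averaged 48170 ± 19016 CPM in bottom and 378461 ± 76266 CPM in top (SD, n = 4), which edgeR put at -2.95 on the log2 scale (SE 0.29, adjusted p = 0.00536). The bottom libraries varied more around their mean, with a coefficient of variation of 39.5% against 20.2% in top. With bottom 1 and bottom 2 both left out, the libraries with the most intestinal transcripts, the log2 fold change was -2.73 (edgeR adjusted p = 0.0083).

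The separate levels of Ins1 and Ins2 depend on how reads of similar sequence were divided. In the GENCODE vM21 transcripts (GRCm38) the coding sequence has 324 bases in Ins1 and 330 in Ins2, and 92.6% of the 324 aligned bases were identical. Of all runs of 50 bases in the coding sequence of Ins1, 1.82% also occur in the Ins2 transcript, and 1.78% the other way. The stretch shown covers the part that encodes the connecting peptide and a few bases of the B and A chains on either side, between coding positions 155 and 274 in Ins1 (chromosome 19, plus strand) and 155 and 280 in Ins2 (chromosome 7, minus strand), because it holds the length difference between the genes. Capitals mark the 6 bases of Ins2 that have no counterpart in Ins1, as the alignment placed them.
Ins1: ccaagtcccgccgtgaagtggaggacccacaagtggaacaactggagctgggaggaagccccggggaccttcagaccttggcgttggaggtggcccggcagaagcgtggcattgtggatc
Ins2: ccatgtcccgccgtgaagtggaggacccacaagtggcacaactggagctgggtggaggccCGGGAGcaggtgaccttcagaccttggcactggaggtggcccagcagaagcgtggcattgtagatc

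The proportion of the insulin genes to each other differed little between the populations. There were 26.2, 20.4, 22.5 and 22.04 Ins1 reads per 100 Ins2 reads in bottom 1 to bottom 4, against 24.7, 15.7, 18.7 and 17.1 in top 1 to top 4. Top 1 lay among the bottom libraries, so the populations overlapped, and the other top libraries lay below all bottom libraries. The ratio was 1.21-fold higher in bottom (log2 difference 0.27, n = 4, two-sided exact permutation p = 0.171, adjusted p = 0.223 over 13 ratios). An interval of shifts that the exact test does not reject ran from 0.825-fold to 1.66-fold. The log2 difference was 0.23 in batch 1 and 0.32 in batch 2.

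Iapp, whose product amylin is released together with insulin, was lower in every bottom library but by less than insulin. It had 9788, 10710, 24146 and 20084 CPM across bottom 1 to bottom 4, against 30678, 29077, 35054 and 32911 CPM in top 1 to top 4. The bottom libraries fell into a low pair in batch 1 and a higher pair in batch 2, while the top libraries differed little, with a coefficient of variation of 8.17%. The log2 fold change was -1.08 (SE 0.21, 95% interval from -1.55 to -0.61), which did not pass the threshold (edgeR adjusted p = 0.0702). DESeq2 and limma-trend, which called 587 and 145 of all tested genes against 52 with edgeR, called Iapp (adjusted p of 0.00738 and 0.0242). Between batches the log2 differences of the means were -1.54 and -0.62, and the edgeR test of the interaction gave an unadjusted p of 0.0109 and an adjusted p of 0.525. The interaction test called 0 of 11721 genes (0.0%), and no other tool was run for it. Iapp was 1 of 4 members, with Ins1, Ins2 and Pcsk1, whose populations did not overlap in CPM, as for 7.22% of all tested genes.

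Set against insulin within each library, Iapp was higher in bottom. There were 34.8, 15.4, 65.4 and 34.6 Iapp reads per 100 insulin reads in bottom 1 to bottom 4, against 7.497, 6.17, 11.5 and 10.0 in top 1 to top 4. The populations did not overlap, and bottom 2 and bottom 3 were the extremes of their group. The ratio was 3.88-fold higher in bottom (log2 difference 1.96, n = 4, two-sided exact permutation p = 0.0286, the smallest that 70 relabellings can give). After adjustment over 13 ratios the exact p was 0.0619, and relabelling within batches gave 0.0556, the smallest its 36 arrangements can give. The ratio differed by 3.41-fold in batch 1 and 4.43-fold in batch 2. Iapp is also known in rodent delta cells, whose hormone Sst had 51102, 55701, 31584 and 32046 CPM across bottom 1 to bottom 4, higher in batch 1 where Iapp was lower. The part of delta cells in the level of Iapp was not tested.

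The make-up of the hormone reads shows the same shift from another side. Of the reads of 7 hormone genes (Ins1, Ins2, Iapp, Gcg, Sst, Ppy and Pyy), insulin took 13.0%, 19.0%, 27.99% and 33.4% in bottom 1 to bottom 4, against 79.5%, 83.0%, 63.4% and 72.5% in top 1 to top 4. Iapp took 4.54%, 2.93%, 18.3% and 11.6% in bottom, against 5.96%, 5.13%, 7.28% and 7.27% in top. Iapp thus held a smaller part of the hormone reads than any top library in bottom 1 and bottom 2, and a larger part in bottom 3 and bottom 4. Ppy, which encodes pancreatic polypeptide, took 30.1%, 21.6%, 6.23% and 10.3% in bottom and at most 0.349% in top. All 7 hormones together made up 23.6% ± 7.63 of all reads in bottom and 44.7% ± 2.86 in top (SD, n = 4).

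**Figure D2:**
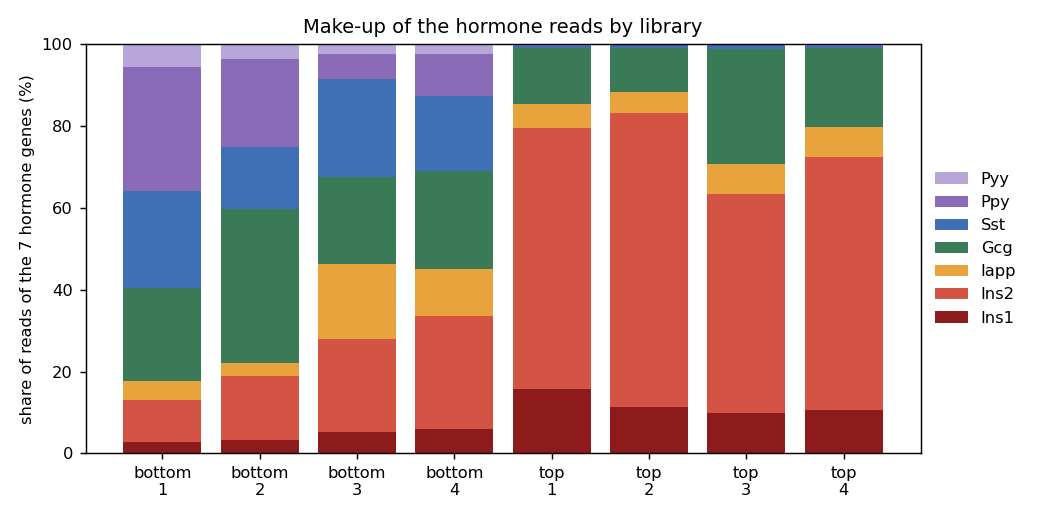
Share of each hormone gene (percent of the reads of 7 hormone genes, linear axis) in every library, bottom libraries on the left. Insulin takes 13.0% to 33.4% of the hormone reads in bottom and 63.4% to 83.0% in top, and Gcg, Sst, Ppy and Pyy fill most of the rest in bottom.

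Pcsk1, the convertase that cuts proinsulin mainly between its B chain and the connecting peptide, was the enzyme gene with the largest difference. It had 79.2, 19.5, 130 and 79.0 CPM across bottom 1 to bottom 4, against 333, 197, 207 and 311 CPM in top 1 to top 4. All bottom libraries lay below all top libraries, with bottom 2 the lowest at 209 reads. The mean was 76.9 ± 45.0 CPM in bottom and 262 ± 70.03 CPM in top (SD, n = 4), which edgeR put at -1.87 on the log2 scale (SE 0.49, 95% interval from -2.96 to -0.78, adjusted p = 0.182). It did not pass the threshold when any library was left out, while DESeq2 called it (adjusted p = 0.0100). In batch 1 the log2 difference of the means was -2.42 and in batch 2 it was -1.31.

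Pcsk2, the convertase that cuts mainly between the connecting peptide and the A chain, showed no common direction. It had 1821, 3291, 901 and 1255 CPM across bottom 1 to bottom 4, against 1965, 2225, 1904 and 1319 CPM in top 1 to top 4. Bottom 2 was the highest of all libraries and bottom 3 the lowest. The log2 fold change was -0.15 (SE 0.28, 95% interval from -0.78 to 0.49, edgeR adjusted p = 0.923). Its sign turned with no scaling beyond the library total, to 0.18, and the within-batch values were 0.29 in batch 1 and -0.58 in batch 2. Gcg, whose product Pcsk2 cuts in alpha cells, had 49319, 137464, 27942 and 41460 CPM across bottom 1 to bottom 4, against 70146, 62188, 135233 and 86987 CPM in top 1 to top 4. Within bottom, bottom 2 was highest and bottom 3 lowest for both genes, whereas within top the library with the most Pcsk2, top 2, had the least Gcg. The part of alpha cells in the level of Pcsk2 was not tested.

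Seen as a ratio, there were 4.35, 0.594, 14.4 and 6.30 Pcsk1 reads per 100 Pcsk2 reads in bottom 1 to bottom 4, against 16.9, 8.85, 10.9 and 23.6 in top 1 to top 4. Bottom 3 lay among the top libraries, and the other bottom libraries were below all of them. The ratio was 3.58-fold lower in bottom (log2 difference -1.84, n = 4, two-sided exact permutation p = 0.0857, adjusted p = 0.124 over 13 ratios), with an interval of bottom over top from 0.0252-fold to 1.62-fold. Without bottom 2 the log2 difference was -0.93, and it was -2.93 in batch 1 and -0.75 in batch 2.

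Windows around the annotated starts of these genes differ in G and C content. They are shown for both hormones with a window and for both convertases. Neither convertase gene was called, and a link between promoter sequence and level was not tested. RefSeq windows (GRCm38.p6) of 250 bases before to 50 bases after the annotated start were at hand for 5 of the 7 genes, and not for Ins2 and Cpe. The deposited counts were made on mm9, so these positions serve only to place the sequence. The windows are chr19:52264047-52264346 for Ins1, chr6:142298175-142298474 for Iapp, chr13:75089607-75089906 for Pcsk1 and chr2:143545883-143546182 for Pcsk2, all on the plus strand. The Pcsk1 gene is annotated from chr13:75089420, so its window lies inside the gene, around a later annotated start. Capitals mark matches, on either strand and with overlaps allowed, to 4 short motifs named for elements of insulin promoters or of cAMP-responsive genes. The motifs were the insulin E box CATCTG, the A box core TAAT, the C1 element run GCAGCTTC and the cAMP response element TGACGTCA.
Ins1: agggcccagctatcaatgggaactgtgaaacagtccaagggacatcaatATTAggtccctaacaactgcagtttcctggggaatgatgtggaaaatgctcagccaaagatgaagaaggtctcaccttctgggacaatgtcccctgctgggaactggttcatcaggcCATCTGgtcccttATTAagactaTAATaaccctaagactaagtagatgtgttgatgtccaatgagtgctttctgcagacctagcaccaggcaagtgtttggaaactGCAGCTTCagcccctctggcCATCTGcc
Iapp: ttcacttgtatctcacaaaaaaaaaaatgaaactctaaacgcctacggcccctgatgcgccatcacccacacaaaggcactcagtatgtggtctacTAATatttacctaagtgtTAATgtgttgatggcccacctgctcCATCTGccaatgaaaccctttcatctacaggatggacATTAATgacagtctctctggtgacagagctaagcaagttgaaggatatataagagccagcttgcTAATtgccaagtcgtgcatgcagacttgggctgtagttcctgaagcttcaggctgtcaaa
Pcsk1: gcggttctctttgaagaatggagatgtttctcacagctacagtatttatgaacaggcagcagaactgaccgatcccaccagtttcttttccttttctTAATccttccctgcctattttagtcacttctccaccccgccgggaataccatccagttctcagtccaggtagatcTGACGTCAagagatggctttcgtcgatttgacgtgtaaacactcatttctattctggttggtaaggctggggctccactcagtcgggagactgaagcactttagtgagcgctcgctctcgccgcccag
Pcsk2: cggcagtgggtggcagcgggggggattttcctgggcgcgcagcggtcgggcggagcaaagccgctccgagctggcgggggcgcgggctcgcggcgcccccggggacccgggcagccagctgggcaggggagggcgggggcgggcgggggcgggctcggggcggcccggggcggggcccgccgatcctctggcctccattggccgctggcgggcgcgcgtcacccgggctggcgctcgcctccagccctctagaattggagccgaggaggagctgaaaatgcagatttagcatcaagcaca

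The window of Ins1 held the E box at 2 places, 84 bases before and 42 bases after the annotated start, and the C1 run once, 22 bases after it, and that of Iapp held the E box 111 bases before its start, while 17.2% and 2.19% of all 32851 windows hold these motifs. The A box core matched at 3 places in Ins1, at 5 in Iapp and at 1 in Pcsk1, a short motif that 58.0% of all windows hold. Pcsk1 held the cAMP response element 78 bases before the annotated start used, at a place inside the annotated gene. Of all windows 1.79% hold this element. The Pcsk2 window matched none of the 4 motifs and had 76.3% G and C, against 48.3% in Ins1, 44.3% in Iapp, 49.3% in Pcsk1 and a median of 52.7% over all windows. A match is a description of letters and not a site of binding. Positions count from the annotated start, and whether transcription begins there was not tested.

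Cpe and Pam act after the convertases. Cpe had 964, 1893, 1282 and 1722 CPM across bottom 1 to bottom 4, against 2052, 2108, 1707 and 2108 CPM in top 1 to top 4. Bottom 2 and bottom 4 lay above top 3, so the populations overlapped. The log2 fold change was -0.44 (SE 0.24, 95% interval from -0.99 to 0.11, edgeR adjusted p = 0.610). Pam had 307, 659, 520 and 529 CPM across bottom 1 to bottom 4, against 385, 328, 343 and 435 CPM in top 1 to top 4. Every bottom library but bottom 1 lay above every top library. Pam was the 1 member with a positive log2 fold change, 0.44 (SE 0.27, 95% interval from -0.16 to 1.04, edgeR adjusted p = 0.666), at 0.44 in batch 1 and 0.43 in batch 2.

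**Figure D3:**
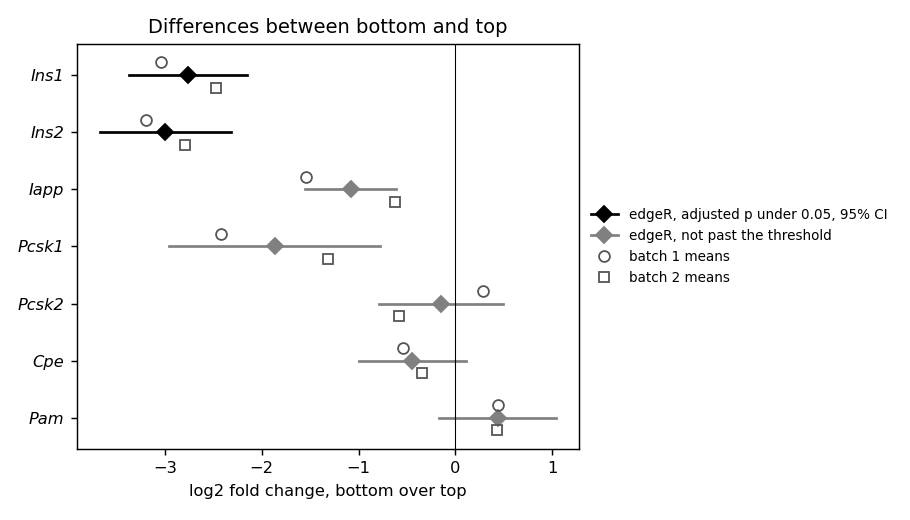
Log2 fold change of bottom over top for each gene, with the edgeR estimate as a diamond (black where it passed the threshold), its 95% interval as a line, and the difference of batch means as circles for batch 1 and squares for batch 2. The insulin genes lie near -3, Iapp and Pcsk1 between -1 and -2 without passing the threshold, and Pcsk2 has batch values of opposite sign.

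Relative to insulin, the enzyme transcripts were several-fold more abundant in bottom, and so were those of most other genes. There were 64.8, 47.3, 24.4 and 21.6 Pcsk2 reads per 1000 insulin reads in bottom 1 to bottom 4, against 4.80, 4.72, 6.24 and 4.02 in top 1 to top 4. There were 34.3, 27.2, 34.7 and 29.6 Cpe reads per 1000 insulin reads in bottom, against 5.02, 4.47, 5.59 and 6.42 in top. There were 10.9, 9.48, 14.1 and 9.11 Pam reads per 1000 insulin reads in bottom, against 0.940, 0.695, 1.12 and 1.33 in top. For these 3 ratios the populations were far apart. They were 7.30-fold, 5.87-fold and 10.8-fold higher in bottom (n = 4, two-sided exact permutation p = 0.0286 each, the smallest possible, and 0.0619 adjusted over 13 ratios). The Cpe ratio was the most even, since its log2 SD was 0.17 in bottom and 0.22 in top, and the Pcsk2 ratio was 11.6-fold higher in batch 1 and 4.58-fold in batch 2.

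Pcsk1 was the exception among the enzymes. There were 2.82, 0.281, 3.51 and 1.36 Pcsk1 reads per 1000 insulin reads in bottom 1 to bottom 4, against 0.814, 0.418, 0.678 and 0.947 in top 1 to top 4. Bottom 2 lay below every top library and the other bottom libraries above every one. The ratio was 2.04-fold higher in bottom (n = 4, two-sided exact permutation p = 0.257, adjusted p = 0.304 over 13 ratios), with an interval from 0.297-fold to 8.39-fold, and 1.52-fold higher in batch 1 and 2.73-fold in batch 2.

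**Figure D4:**
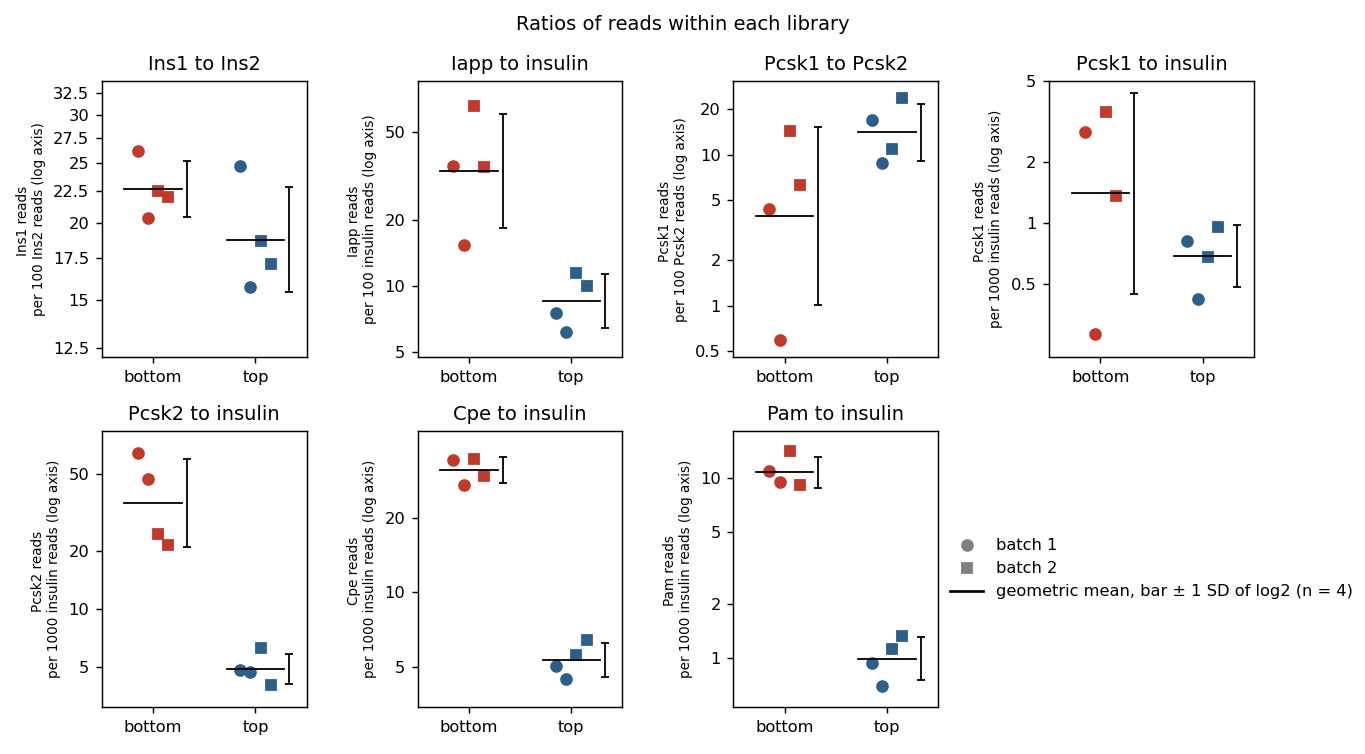
Ratios of reads within each library on log axes, in bottom (red) and top (blue), with circles for batch 1, squares for batch 2, the geometric mean as a line and 1 SD of the log2 ratio as a bar. Iapp, Pcsk2, Cpe and Pam per insulin read are higher in every bottom library, while Ins1 per Ins2, Pcsk1 per Pcsk2 and Pcsk1 per insulin overlap.

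The fall of insulin alone moves any ratio to it. Over 11719 tested genes other than Ins1 and Ins2, the median gene had 7.85-fold more reads per insulin read in bottom, with quartiles of 5.15-fold and 11.98-fold. The populations did not overlap, with bottom higher, for 64.3% of these genes, so the 4 members of 5 that did the same are near the background, and 0.0853% did not overlap with bottom lower. Among the genes Pcsk2 stood at the 45.4th percentile, Cpe at the 31.6th, Pam at the 70.1st, Iapp at the 16.0th and Pcsk1 at the 6.30th. Read against the median gene, Pcsk2, Cpe and Pam lay within the middle range, and Iapp and Pcsk1 kept closer to insulin than most genes did.

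**Figure D5:**
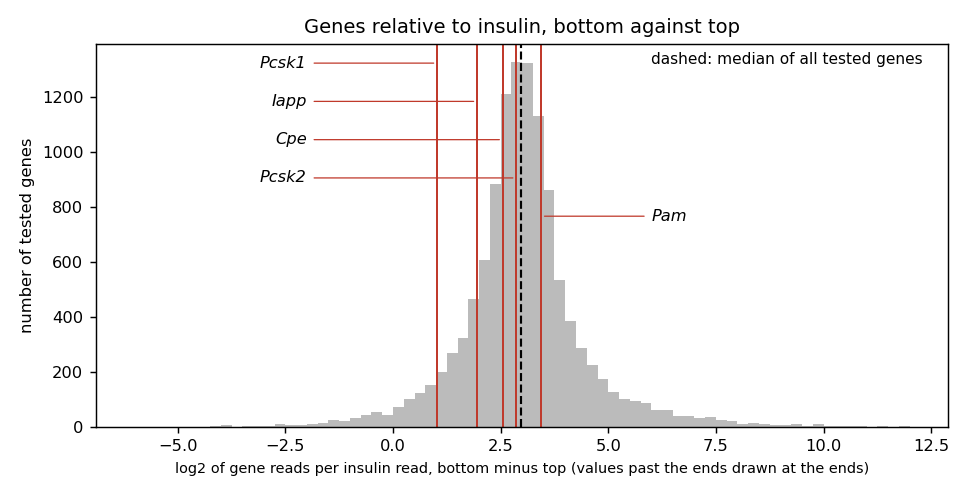
Number of tested genes by the log2 difference, bottom minus top, of reads per insulin read (linear axes). Red lines mark Pcsk1 at 1.03, Iapp at 1.96, Cpe at 2.55, Pcsk2 at 2.87 and Pam at 3.43, and the dashed line the median of all tested genes at 2.97.

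The enzymes were also set against all 7 hormones, since they process the other islet prohormones too. There were 8.45, 9.01, 6.83 and 7.22 Pcsk2 reads per 1000 hormone reads in bottom 1 to bottom 4, against 3.82, 3.92, 3.95 and 2.91 in top 1 to top 4. On this measure the bottom libraries were as even as the top libraries, with log2 SDs of 0.19 and 0.21, although their Pcsk2 levels ran between 901 and 3291 CPM. The ratio was 2.16-fold higher in bottom (n = 4, two-sided exact permutation p = 0.0286, adjusted p = 0.0619 over 13 ratios), at 2.26-fold in batch 1 and 2.07-fold in batch 2. Pam per hormone read was 3.20-fold higher with no overlap (same exact permutation p and adjusted p), at 1.43 to 3.94 reads per 1000 hormone reads in bottom and 0.577 to 0.962 in top. Cpe was 1.74-fold higher, at 4.47 to 9.91 in bottom and 3.54 to 4.66 in top (exact permutation p = 0.0571, adjusted p = 0.106). Pcsk1 was 1.66-fold lower, at 0.0535 to 0.983 in bottom and 0.347 to 0.687 in top (exact permutation p = 0.657, adjusted p = 0.712). Its log2 difference changed sign between batches, at -1.76 in batch 1 and 0.30 in batch 2, and was 0.11 without bottom 2. Over all other tested genes the median was 2.32-fold higher, and 21.7% did not overlap with bottom higher.

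Genes that act beside these enzymes did not pass the test. In a list of 23 further convertases, carboxypeptidases, inhibitors, chaperones and cofactor genes, 19 were tested and none was called in either direction, with 0.282% of all tested genes called higher and 0.162% called lower. At an unadjusted p under 0.05 edgeR had 1 of them, the copper chaperone gene Atox1, at 67.4 CPM in bottom and 37.7 CPM in top (adjusted p = 0.393), while 10.3% of all tested genes were under that p. Pam is a copper enzyme. DESeq2 and limma-trend called 0 of the list. The median log2 fold change of the list was -0.09, against 0.00328 over all tested genes. Scg5, the chaperone that Pcsk2 needs to become active, averaged 2378 ± 583 CPM in bottom and 2711 ± 187 CPM in top (edgeR log2 fold change -0.20 with SE 0.19 and adjusted p = 0.815, n = 4). Pcsk1n, which encodes an inhibitor of the Pcsk1 enzyme, averaged 46.5 CPM in bottom and 40.7 CPM in top (edgeR adjusted p = 0.987). Furin, the convertase of the secretory pathway of most cells, averaged 5.75 CPM in bottom and 6.90 CPM in top, and the carboxypeptidase gene Cpd 59.3 CPM in bottom and 57.3 CPM in top (edgeR adjusted p = 0.932 and 0.977). The protease gene Ctsl averaged 245 CPM in bottom and 293 CPM in top, and the copper transporter gene Atp7a 60.1 CPM in bottom and 78.2 CPM in top (edgeR adjusted p = 0.848 and 0.781).

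The partner ratios overlapped. There were 1.199, 0.974, 2.04 and 1.82 Scg5 reads per Pcsk2 read in bottom 1 to bottom 4, against 1.42, 1.32, 1.34 and 1.94 in top 1 to top 4 (exact permutation p = 0.8286, interval from 0.502-fold to 1.54-fold). There were 0.532, 5.18, 0.181 and 0.244 Pcsk1n reads per Pcsk1 read in bottom, against 0.143, 0.148, 0.284 and 0.0890 in top (exact permutation p = 0.0857, adjusted p = 0.124). Bottom 2 stood apart with the highest Pcsk1n and the lowest Pcsk1, and without it the log2 difference was 0.91 in place of 1.96.

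The proton pump that acidifies granules, which the convertases need to work, had no subunit gene called. All 17 subunit and accessory genes were tested, 14 had a negative log2 fold change against 49.9% of all tested genes, and the median was -0.41. At an unadjusted p under 0.05 edgeR had 2 of the 17, near the 10.3% of all tested genes, and DESeq2 and limma-trend called 0. The populations did not overlap in CPM for 4 of the 17, not all in the same direction, against 7.22% of all tested genes. Atp6ap2, an accessory subunit, averaged 210 ± 72.0 CPM in bottom and 405 ± 22.2 CPM in top (edgeR log2 fold change -0.98 with SE 0.27 and adjusted p = 0.214, n = 4). Atp6v1g1 averaged 288 CPM in bottom and 375 CPM in top, and Atp6v1f 282 CPM in bottom and 306 CPM in top (edgeR adjusted p = 0.783 and 0.928). Of 5 genes of proteases that degrade insulin or amylin, edgeR called none either. Bace2, Ide and Ece1 had an unadjusted p under 0.05 in edgeR, all lower in bottom. These 3 of 5 are a larger share than the 10.3% of all tested genes. Bace2, which cuts amylin precursors in beta cells, averaged 35.6 CPM in bottom and 224 CPM in top (edgeR log2 fold change -2.78 with SE 0.84 and adjusted p = 0.254, n = 4), and DESeq2 called it. Ide, the insulin-degrading enzyme, averaged 17.7 CPM in bottom and 43.4 CPM in top (edgeR adjusted p = 0.403), and Ece1 160 CPM in bottom and 269 CPM in top (edgeR adjusted p = 0.484). Mme averaged 122 CPM in bottom and 5.78 CPM in top (edgeR adjusted p = 0.668), at 397 CPM in bottom 1, the library with the most intestinal transcripts.

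Among other prohormones, the substrates of the same enzymes, edgeR called 3 of 11 tested genes higher in bottom and 0 lower, against 0.282% and 0.162% of all tested genes. Sst, the delta cell hormone, ran from 31584 to 55701 CPM in bottom, against 2475, 2892, 5048 and 2333 CPM in top 1 to top 4 (edgeR log2 fold change 3.71 with SE 0.33 and adjusted p = 0.00498, n = 4). Ppy averaged 42459 ± 34614 CPM in bottom and 1172 ± 629 CPM in top, and Pyy 8166 ± 5276 CPM in bottom and 811 ± 142 CPM in top (n = 4, edgeR adjusted p = 0.0203 and 0.0186). Only Sst was called without top 1, without top 2 or without bottom 4, Pyy was not called without top 4, and Ppy was not called without bottom 1 and bottom 2 together (edgeR adjusted p = 0.134). Gcg averaged 64046 CPM in bottom and 88639 CPM in top (edgeR log2 fold change -0.59 with SE 0.49 and adjusted p = 0.784). Ucn3, the urocortin gene that also serves as a marker of mature beta cells, had 8.08, 151, 10.9 and 28.4 CPM across bottom 1 to bottom 4, against 1007, 1344, 624 and 757 CPM in top 1 to top 4. The populations did not overlap, and edgeR gave an adjusted p of 0.0589 (log2 fold change -4.51, SE 0.81, n = 4). Npy, which encodes neuropeptide Y, averaged 43.9 ± 27.6 CPM in bottom and 208 ± 72.6 CPM in top with no overlap (edgeR adjusted p = 0.139). DESeq2, limma-trend and edgeR with no low-count filter called both lower in bottom, and edgeR called Ucn3 lower with no scaling beyond the library total, without bottom 1, without bottom 2 and without both. The list median was -0.59, and 16 of its 27 genes did not pass the filter.

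Of 11 transcription factor genes that act on the insulin promoters, 9 were tested and none was called by edgeR, DESeq2 or limma-trend. Of the 9, 2 had an unadjusted edgeR p under 0.05, Isl1 and Nkx2-2, in opposite directions, against 10.3% of all tested genes. Nkx2-2 averaged 9.25 CPM in bottom and 28.2 CPM in top with no overlap (edgeR log2 fold change -1.62 with SE 0.57 and adjusted p = 0.337). Pdx1 (3.97 and 4.84 CPM), Nkx6-1 (1.84 and 7.23 CPM) and Glis3 (1.28 and 0.878 CPM) had low means in bottom and top, which limits their tests. Neurod1, which binds the E box as part of a pair, averaged 243 ± 74.96 CPM in bottom and 352 ± 65.7 CPM in top (edgeR log2 fold change -0.53 with SE 0.28 and adjusted p = 0.601, n = 4). Isl1 averaged 316 ± 58.5 CPM in bottom and 186 ± 49.6 CPM in top (0.76, SE 0.28, edgeR adjusted p = 0.361), and Pax6 198 CPM in bottom and 232 CPM in top (edgeR adjusted p = 0.887). The median log2 fold change of the list was -0.28. Mafa had no read and Mnx1 had too few reads to be tested.

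For summed insulin, Iapp, Pcsk1, Pcsk2 and Cpe the genes with the nearest pattern were the 3 others with the smallest root mean square difference of centred log2(CPM + 1) over the 8 libraries. They were Ccdc101, Sgsm3 and Dnajc24 for summed insulin, at 0.43 to 0.47 log2 units, so that no gene followed insulin closely. Prkcb, Amd1 and Sc4mol were nearest to Iapp, at 0.15 to 0.18. Anks1, Zfp869 and Usp51 were nearest to Pcsk1, at 0.31 to 0.38, and Sdf4, Ccdc47 and Gm6793 to Pcsk2, at 0.20 to 0.22. Nars, Txndc9 and Sorbs2 were nearest to Cpe, at 0.13 to 0.17.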

How the data were processed

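Libraries of 4 bottom and 4 top beta cell samples were compared. Per the labels' protocols, cDNA was amplified from about 1000 cells with a SMARTer kit and tagmented with Nextera XT. No separate animals are named for the libraries, so a p-value covers only library-to-library spread, possibly technical. The deposited values are RSEM expected counts per gene, unscaled and 34.8% of them not whole. The submitters' processing notes name RSEM, edgeR and the build mm9, while aligner, annotation and versions are not given in the sources used here.

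Counts were rounded for testing with edgeR 4.0.16 in R 4.3.3 (TMM scaling, filterByExpr, quasi-likelihood test of bottom over top with the batch as a covariate, Benjamini-Hochberg over 11721 genes, threshold 0.05). The code was tested on simulated data with less spread than these libraries and no batch effect, which does not show its power here. Ratios used unrounded counts within a library and a two-sided exact permutation test of the mean log2 ratio, adjusted over 13 ratios. Their intervals hold the shifts that this test does not reject at 0.05. Ratios over all genes, chosen after seeing the data, had 0.5 added to each count. DESeq2 1.42.0 and limma-trend (limma 3.58.1) were alternatives, with other scalings, filters, batch terms and omissions of libraries. Named genes were all members, called list genes, the 3 most abundant genes of each list and a short set chosen by name, beside Atox1, Cpxm1, Mafa, Mnx1, Npy and Ucn3, which were named after their values were seen. The genes nearest in pattern to Pam are not reported here. The members and lists were chosen with earlier results of these data known.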

Additional observations from a re-analysis of the deposited data

Results flagged for a closer look

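Of 42 groups of 4 libraries examined for a single library apart from the rest (21 measures in each population), 4 had one, where chance gives about 1 in 20. The criterion was a gap to the nearest library above Dixon's 95% critical value for the share of the group's range. In top, Cpe stood lowest in top 3, at 1707 CPM, and the others lay between 2052 and 2108 CPM. Top 4 had the fewest Pcsk2 reads per 1000 hormone reads in top, at 2.91, and the most Scg5 reads per Pcsk2 read, at 1.94. In bottom, the Pcsk1n reads per Pcsk1 read of bottom 2, at 5.18, were far above the others. No explanation of these values was tested.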

How the results depend on the processing

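The fall of Ins1, Ins2 and summed insulin kept its direction in every alternative and its call in every omission of 1 library, with log2 fold changes of -2.96 to -2.54, -3.25 to -2.75 and -3.18 to -2.72. Calls were lost within a batch and with the block. Ins1, Ins2 and summed insulin stood at -3.07, -3.22 and -3.19 in batch 1 alone and at -2.46, -2.77 and -2.72 in batch 2 alone, with 2 libraries against 2. With a replicate block of the batch and the number in the library titles they stood at -3.31, -3.49 and -3.46. Only the libraries numbered 1 compare the populations in that fit, which called 0 genes, and 0 other prohormones. The numbers are shared by 2 pairs of libraries, whose deviations correlated across genes at 0.0926 and -0.00134. With 2 libraries per population and batch, such values cannot exclude a shared origin of the libraries in a pair. The libraries were not taken as pairs in the main fit, and the batch served as the block for the ratios (exact permutation p up to 0.778). Iapp passed with DESeq2 (-1.03), limma-trend (-1.08) and no low-count filter (-1.11), and Pcsk1 with DESeq2 (-1.80) and no filter (-1.91). Pcsk2 turned positive with no scaling beyond the library total (0.18, where the median of all genes moved to 0.34), in batch 1 alone (0.26), and without bottom 3 (0.03) or top 3 (0.037), over a range of -0.41 to 0.04 in omissions. The ratio of Pcsk2 to insulin had a log2 difference of 3.54 in batch 1, 2.20 in batch 2 and 2.23 without bottom 1 and bottom 2. For Cpe to the 7 hormones these values were 0.32, 1.27 and 1.31, and for Pcsk1 to the 7 hormones -1.76, 0.30 and 0.40. Without bottom 1 and bottom 2, Pam to the 7 hormones was at 2.23 and Scg5 to Pcsk2 at 0.37. The count of 52 genes called overall was 587 with DESeq2, 145 with limma-trend, 204 with no filter, 32 with no batch term, 2 in each batch alone and 8 to 60 in omissions of 1 library, at most 33 in each of these but that of bottom 1. Other prohormones had 6 calls with DESeq2, 5 with limma-trend, 6 with no filter, 0 in batch 2 alone and 1 to 4 in omissions. Hormone clearance had 1 call with DESeq2 and processing partners 1 with no filter (Cpxm1). Pcsk1, with 209 reads in its lowest library, is the member whose level depth limits most. The cause of these changes was not tested.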
